A study of Mus musculus with 6 samples.

Results

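Purine turnover was read in osteoclast precursors (OCPs) through 9 genes named by their enzyme role, *Ampd3*, *Ampd2*, *Ada*, *Adk*, *Pnp*, *Hprt*, *Xdh*, *Entpd1* and *Nt5e*, of the 57180 genes in the deposited table. All 9 had a row under their own symbol, all carried the purine metabolism term of KEGG in that table, and all passed the filter on low counts. *Ampd3* was singled out with the difference between genotypes in these libraries already known, and no threshold was set for the other 8. The values of the 9 genes between KO and WT are therefore given as a description with no p-value, and the counts of members called serve the same purpose.

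RNA was sequenced from 3 WT (C57BL/6) and 3 *lincRNA-EPS* knockout (KO) cultures of mouse bone marrow-derived macrophages. Cells of both genotypes received 40 ng/ml M-CSF, the growth factor of macrophages, for 24 h. RANKL, which commits such precursors to the osteoclast fate, was then added at 40 ng/ml for 48 h. The age and sex of the marrow donors, and whether marrow was pooled, are not given in the sources used here. The replicates are described as biologically independent, and the p-values below measure the spread between them.

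Cells break down adenine nucleotides by several routes. AMP deaminase turns AMP into IMP inside the cell. Outside the cell, CD39 (*Entpd1*) strips ATP and ADP down to AMP and CD73 (*Nt5e*) turns AMP into adenosine. Adenosine is returned to AMP by adenosine kinase (*Adk*) or turned into inosine by adenosine deaminase (*Ada*). Inosine and guanosine are split to bases by purine nucleoside phosphorylase (*Pnp*), and the bases are either rescued by HPRT (*Hprt*) or oxidised to uric acid by xanthine dehydrogenase (*Xdh*). Extracellular ATP and adenosine act on osteoclasts and macrophages through P2 and adenosine receptors.

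The libraries held between 17757351 and 19998611 estimated counts. Levels are given as normalized counts, abbreviated CPM, which are counts scaled to the library size with TMM factors. A level of 3 counts, taken as the smallest measured, is 0.150 to 0.169 CPM here, and this floor covers counting error only. LincRNA-EPS (*Ttc39aos1*) had 20, 37 and 41 counts in the WT libraries and 0 in each KO library, so KO was at least 10.2-fold lower against a floor of 3 counts per library. Some libraries stood apart by GC content. Over 13176 genes, not independent of each other, the deviation of a library from the mean was correlated with GC content. The r was 0.192, 0.563 and 0.23 in WT replicates 1, 2 and 3, and 0.046, -0.099 and -0.606 in KO replicates 1, 2 and 3. The log2 fold change of KO over WT had r = -0.51 with GC content, so this trend ran with genotype. Genotype and this trend cannot be told apart in these libraries. For the members, log2 fold changes and ratios are given also with a correction for GC content where it moved them. KO replicate 2 held 2.71% of its counts in the ribosomal gene *Rn18s-rs5*, against 0.202% to 0.575% in the others. Mitochondrial genes took 1.5%, 1.00% and 1.53% of the counts in WT and 1.78%, 2.12% and 3.32% in KO, so that every KO library was above every WT library, and their part in the values below was not tested.

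Markers of the labelled cells were present in every library. The 7 macrophage markers summed to 16711 to 17882.5 CPM in WT and 15078.6 to 17943.2 CPM in KO, with a median log2 fold change of -0.14, from -0.29 for *Adgre1* to -0.0030 for *Cd68*, which was at 0.12 with the GC correction. Of the 7, 4 had every KO library below every WT library, against 18.8% of all genes tested. The 9 osteoclast markers summed to 4966.9 to 5333.5 CPM in WT and 6700.8 to 7058.1 CPM in KO. Of the 9, 5 had every KO library above every WT library, against 16.9% of all genes tested. *Mmp9* and *Ocstamp* overlapped between genotypes, though not with the GC correction. *Tnfrsf11a* and *Itgb3* also overlapped, with log2 fold changes of -0.009 and -0.012. The 10 neutrophil markers, of which *Ly6g* was too low to test, summed to 1346.5 to 1522.8 CPM in WT and 1765.8 to 2134.5 CPM in KO. Of these, 5 had every KO library above every WT library, *S100a8*, *S100a9* and *Ngp* among them, against 16.9% of all genes tested. *Elane* and *Mpo* had every KO library below every WT library, against 18.8%. With the GC correction the libraries of these 2 genes overlapped, and their log2 fold changes went from -0.33 to -0.087 and from -0.42 to -0.19. *Mmp8* was then lower and *Camp* higher without overlap, at -0.17 and 0.475. *Ampd3* is best known as the AMP deaminase of red blood cells, and erythroid markers were near 0: the list summed to 1.00 to 1.75 CPM in WT and 0.713 to 1.21 CPM in KO, and 6 of its 9 genes, *Hbb-bs*, *Hbb-bt*, *Klf1* and *Alas2* among them, had no more than 3 counts in any library. The part of the osteoclast and neutrophil markers in the values below was not tested. In such bulk libraries, fewer cells of a type and less RNA per cell cannot be told apart.

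*Ampd3* (ENSMUSG00000005686) lies on chromosome 7 from 110768206 to 110812405 on the plus strand in GRCm38, the build of the annotation used here. The submitters' processing notes name GRCm39 for the counts, and the positions given here follow the annotation alone. RefSeq gives *Ampd3* 3 start sites in GRCm38.p6. The 250 bases before each are shown because an antisense transcript that spans the first of them is among the results below. Capitals mark matches on either strand to CACGTG, the E-box read by the MiT factors of osteoclasts, and to GAGGAA, the core read by the macrophage factor PU.1.
*Ampd3* start 1, chr7:110768372-110768621, plus strand: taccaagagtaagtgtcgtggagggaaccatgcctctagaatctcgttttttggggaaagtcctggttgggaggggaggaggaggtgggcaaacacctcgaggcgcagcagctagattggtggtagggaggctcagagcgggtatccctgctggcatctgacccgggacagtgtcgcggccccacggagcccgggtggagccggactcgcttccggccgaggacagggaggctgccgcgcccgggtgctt
*Ampd3* start 2, chr7:110772354-110772603, plus strand: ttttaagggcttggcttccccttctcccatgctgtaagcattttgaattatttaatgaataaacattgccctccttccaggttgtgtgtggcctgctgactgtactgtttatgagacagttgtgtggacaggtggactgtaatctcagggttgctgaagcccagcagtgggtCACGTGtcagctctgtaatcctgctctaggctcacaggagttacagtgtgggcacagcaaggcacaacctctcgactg
*Ampd3* start 3, chr7:110773386-110773635, plus strand: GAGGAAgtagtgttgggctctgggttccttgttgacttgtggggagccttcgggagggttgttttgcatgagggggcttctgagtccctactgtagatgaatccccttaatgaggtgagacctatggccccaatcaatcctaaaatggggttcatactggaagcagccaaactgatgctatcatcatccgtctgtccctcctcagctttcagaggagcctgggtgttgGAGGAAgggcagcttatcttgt
The window of start 1 had a GC content of 64.0% with 17 CpG and no match to either motif. The window of start 2 had 49.2% GC, 2 CpG and 1 E-box, and that of start 3 had 51.6% GC, 2 CpG and 2 PU.1 cores. Of 32841 RefSeq windows of the same length, 6.02% held the E-box and 23.3% the PU.1 core. Neither TGANTCA, the AP-1 site, nor the interferon-stimulated response element was found in any of these 3 windows, and 6.75% and 2.98% of all windows held them. The deposited counts are per gene and do not say which start was used.

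On the log2 scale, with all 6 libraries, *Ampd3* lay farthest from 0 of the members. It had 103, 122 and 108 normalized counts in WT replicates 1, 2 and 3, and 74.8, 68.7 and 69.6 in KO replicates 1, 2 and 3. All KO libraries lay below all WT libraries, and the lowest WT library was still well above the highest KO library. Means were 111 ± 9.96 for WT and 71.1 ± 3.31 for KO (SD, n = 3 each), so that KO held 64.0% of the WT level. The log2 fold change was -0.64 (standard error, SE, 0.10), which was number 521 from the bottom of the 13428 genes tested. The *Ampd3* transcript has 50.3% GC, and the value was -0.61 (SE 0.075) after the GC correction. It was -0.56 without both WT replicate 2 and KO replicate 3, and lay between -0.70 and -0.57 with each library left out in turn.

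*Ampd2* encodes the second AMP deaminase, the form found in liver and many other tissues. It had 76.1, 86.6 and 79.2 CPM in the WT libraries against 74.6, 68.2 and 51.9 in the KO libraries. The KO libraries lay below the WT libraries, but KO replicate 1 was close to the lowest WT library and KO replicate 3 stood well below the others. Its log2 fold change of -0.31 (SE 0.14) was -0.086 (SE 0.066) after the GC correction, -0.18 without KO replicate 3 and -0.12 without both WT replicate 2 and KO replicate 3. *Ampd2* is the most GC-rich member, at 56.8%. *Ampd1*, the muscle form, had 1 count in each of 2 KO libraries and 0 in the other 4 libraries. Per kilobase of transcript, *Ampd3* made up 58.7%, 59.6% and 58.7% of the summed level of *Ampd2* and *Ampd3* in WT and 51.2%, 51.3% and 58.4% in KO. The share was lower in every KO library than in any WT library, by a narrow gap in KO replicate 3. Corrected for GC content, it was 59.5%, 63.1% and 59.6% in WT and 51.4%, 51.0% and 53.2% in KO.

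**Figure D1:**
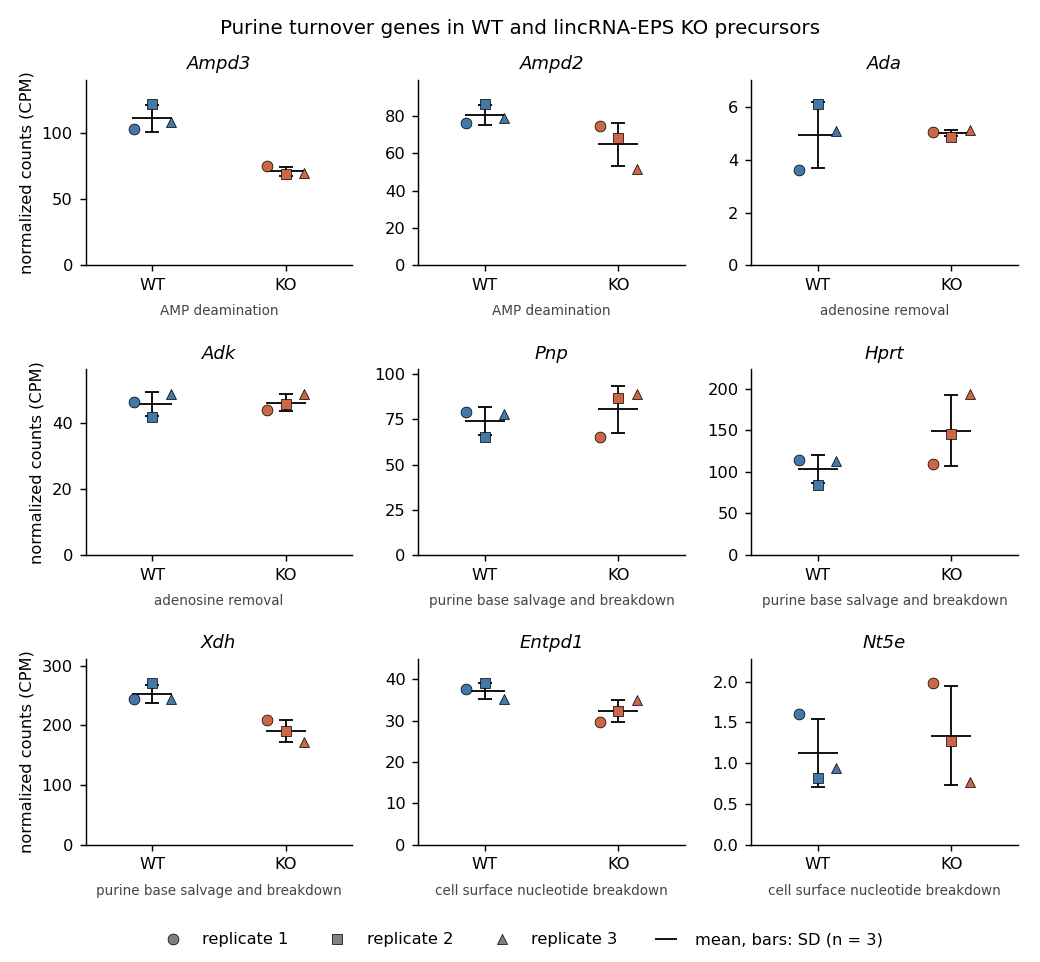
Normalized counts (CPM, vertical axis from 0) of the 9 purine turnover genes in the 3 WT and 3 KO libraries, with 1 panel per gene, 1 point per library, and the mean and SD (n = 3). *Ampd3* sits between 103 and 122 in WT and between 68.7 and 74.8 in KO, and *Xdh*, *Ampd2* and, by a narrow gap, *Entpd1* also have every KO library below every WT library.

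*Xdh*, whose enzyme carries out the last steps to uric acid and can yield reactive oxygen, was also lower in KO. Its WT libraries had 245, 271 and 244 normalized counts and its KO libraries 209, 190 and 172. The libraries of the genotypes were separate, with KO replicate 3 the lowest. Means were 253 ± 15.3 for WT and 191 ± 18.6 for KO (SD, n = 3 each), and the log2 ratio of KO to WT was -0.41 (SE 0.10). It was -0.40 (SE 0.079) with the GC correction and -0.29 without both WT replicate 2 and KO replicate 3.

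*Hprt*, the salvage enzyme that returns hypoxanthine and guanine to IMP and GMP, lay in the other direction. It had 114, 84.1 and 113 CPM in the WT libraries against 109, 145 and 194 in the KO libraries. KO replicates 2 and 3 were above every WT library, while KO replicate 1 was within the WT range, so the genotypes overlapped. Its log2 fold change was 0.52 (SE 0.21). *Hprt* has a transcript of low GC content, 40.1%, and the value was 0.24 (SE 0.12) with the GC correction, 0.29 without KO replicate 3 and 0.16 without both WT replicate 2 and KO replicate 3. Per kilobase, the ratio of *Hprt* to *Xdh* was 2.81, 1.87 and 2.78 in WT and 3.13, 4.58 and 6.80 in KO, and thus higher in each KO library than in any WT library. After the GC correction it was 2.89, 2.35 and 2.91 in WT and 3.15, 4.44 and 5.15 in KO.

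*Pnp*, which splits inosine and guanosine and so feeds both of these enzymes, overlapped between genotypes. Its normalized counts were 79.1, 65.1 and 78.0 in WT and 65.4, 86.8 and 89.3 in KO, with log2 fold change 0.12 (SE 0.14). KO replicate 1 was close to the lowest WT library and the other KO libraries were above WT. The value was 0.013 with the GC correction and -0.046 without both WT replicate 2 and KO replicate 3. The count of this gene depends on how reads were divided: *Gm49342*, a gene model on the same strand, shares 718 exonic bases with it, 18.0% of the exonic bases of *Pnp*. *Pnp* took 51.3% ± 1.16 of the counts of both for WT and 54.9% ± 3.78 for KO (SD, n = 3 each). Together they had 144 ± 12.1 CPM in WT and 146 ± 14.4 CPM in KO, which differed by less than the SD. Its paralog *Pnp2*, with which it shares 0 exonic bases, had 29.9 to 43.3 counts in every library.

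Without the GC correction, the adenosine-removing enzymes overlapped between genotypes. *Adk* had 46.4, 41.8 and 48.8 CPM in the WT libraries against 43.7, 45.7 and 48.8 in the KO libraries, and the libraries of both genotypes spanned nearly the same range. Its log2 fold change was 0.011 (SE 0.10). *Adk* has the lowest GC content of the members, 37.5%, and the correction moved its value to -0.34 (SE 0.098), with corrected levels of 48.5, 54.9 and 51.5 CPM in WT and 43.7, 43.6 and 35.3 CPM in KO. Without both WT replicate 2 and KO replicate 3, but without the correction, it was -0.092. *Ada* had 3.61, 6.13 and 5.09 CPM in the WT libraries against 5.05, 4.89 and 5.14 in the KO libraries. All KO libraries were within the WT range, and the log2 fold change was 0.029 (SE 0.20), from -0.16 without WT replicate 1 to 0.21 without WT replicate 2, and 0.18 with the GC correction. Per kilobase, *Adk* was 2.71 to 5.12 times *Ada* in the WT libraries and 3.44 to 3.77 times in the KO libraries. After the GC correction it was 3.94 to 5.45 times in WT and 2.37 to 3.50 times in KO, without overlap.

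At the cell surface, *Entpd1* had 37.6, 39.1 and 35.2 CPM in the WT libraries against 29.7, 32.3 and 35.1 in the KO libraries. Its libraries were separate by the smallest of gaps, between WT replicate 3 at 35.2 and KO replicate 3 at 35.1. The log2 fold change of -0.20 (SE 0.11) became -0.35 (SE 0.087) with the GC correction, and was -0.14 without KO replicate 1. *Nt5e* had 1.60, 0.821 and 0.945 CPM in the WT libraries against 1.98, 1.27 and 0.764 in the KO libraries, from 15 to 38 counts per library. The genotypes overlapped over most of their range. Its log2 fold change of 0.24 (SE 0.40) ranged from -0.17 without KO replicate 1 to 0.59 without WT replicate 1, so no direction could be given for *Nt5e* at this depth. Per kilobase, *Entpd1* was 22.2 to 45.1 times *Nt5e* in WT and 14.2 to 43.5 times in KO, which overlapped also with the GC correction.

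**Figure D2:**
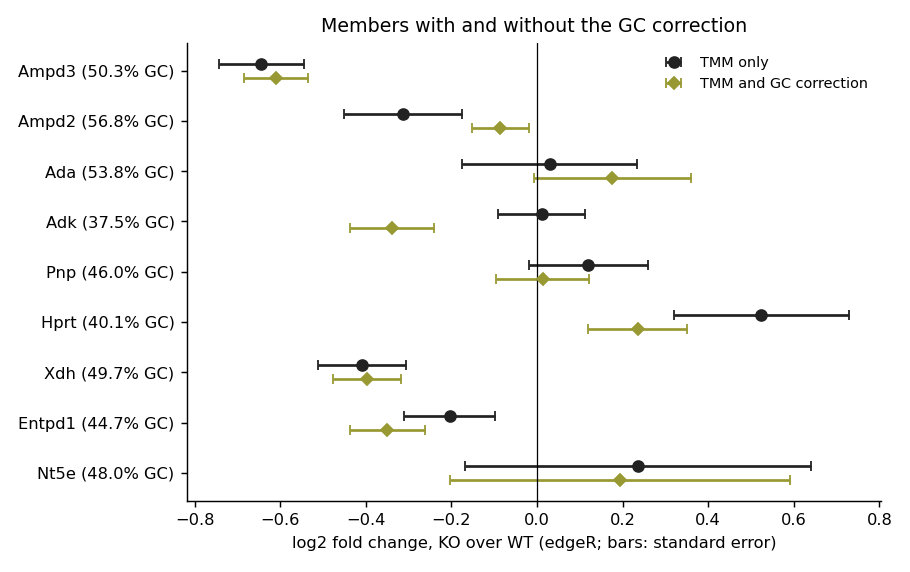
Log2 fold change of KO over WT (horizontal axis, bars are SEs from edgeR) for the 9 members with TMM scaling only and with each library also corrected for GC content, with the GC content of each transcript beside its name. *Ampd3* (-0.64 and -0.61) and *Xdh* (-0.41 and -0.40) stay in place, *Ampd2* moves toward 0, *Hprt* moves from 0.52 to 0.24, and *Adk* leaves 0 for -0.34.

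Of the 9 members, 4 were lower and 0 higher in every KO library than in every WT library. Over all 13428 genes tested, 18.8% were lower in this sense, 16.9% were higher, and 35.7% did not overlap in either direction. With the GC correction the separate members were *Ampd3*, *Xdh*, *Entpd1* and *Adk*, all lower in KO, against 32.2% of all genes tested (17.5% lower and 14.7% higher). A gene was called where its adjusted p was under 0.01 and its fold exceeded 1.3. EdgeR's quasi-likelihood test called 0 members and 0.00745% of all genes tested. DESeq2 called *Ampd3* alone, and 1.22% of the 10357 genes to which it gave an adjusted p. After the GC correction, DESeq2 called *Ampd3* and *Xdh*, and 3.14% of 10821 genes. EdgeR after the correction called *Ampd3* alone among the members when the limit on adjusted p was eased to 0.05, and 0.879% of all genes. Since the members were proposed from this contrast, nothing further is read from these counts. The median log2 fold change was 0.011 for the 9 members and 0.0090 for all genes tested.

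Levels between genes were compared only per kilobase of the longest annotated transcript. In WT the order of the mean was *Hprt* (80.4 ± 13.1 CPM per kilobase), *Xdh* (32.6 ± 1.96), *Ampd3* (27.1 ± 2.43), *Pnp* (25.2 ± 2.65), *Ampd2* (18.8 ± 1.26), *Adk* (10.8 ± 0.838), *Entpd1* (8.84 ± 0.467), *Ada* (2.93 ± 0.750) and *Nt5e* (0.281 ± 0.105, SD, n = 3 each). *Ampd3* and *Pnp* overlapped, and every other pair of neighbours in this order had separate library ranges. In KO, *Hprt* led at 116 ± 33.3 CPM per kilobase. *Pnp* came next at 27.4 ± 4.46 and overlapped with *Xdh* at 24.5 ± 2.40. *Ampd3*, at 17.4 ± 0.807, followed and overlapped with *Ampd2* at 15.1 ± 2.73. The order of the remaining members was the same as in WT, and the other neighbours did not overlap.

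**Figure D3:**
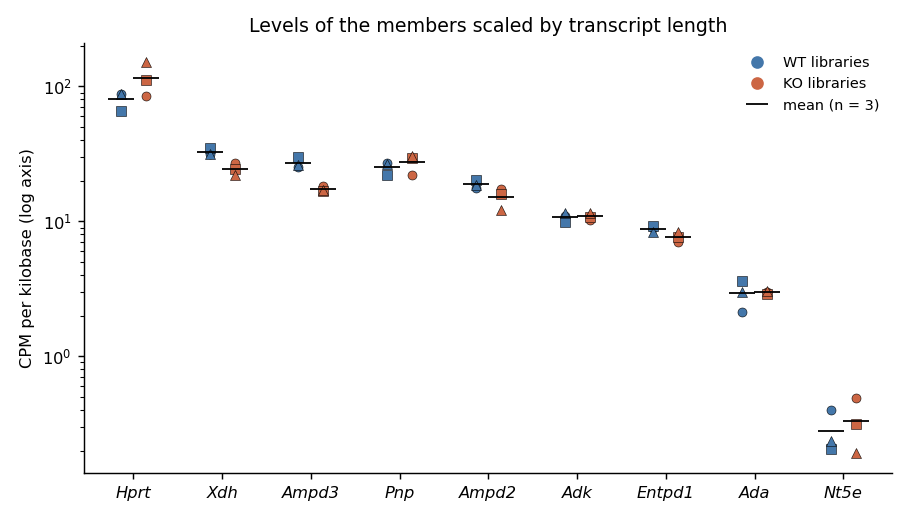
Levels of the 9 members in CPM per kilobase of the longest annotated transcript (vertical log axis), ordered by the WT mean, with 1 point per library and a bar for the mean (n = 3). The members span from 80.4 for *Hprt* to 0.281 for *Nt5e* in WT, and *Ampd3* stands at 27.1 in WT and at 17.4 in KO, next to *Ampd2*.

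The rest of the pathway was read from a list of 88 other genes of purine synthesis, salvage, breakdown, transport and signalling, 65 of which were tested. Of these, 0 were called by edgeR's quasi-likelihood test and 0 by DESeq2 at the limits above. Without adjustment, 14 of the 65 had p under 0.05 in edgeR's test, 8 higher and 6 lower in KO, which is 21.5% against 26.2% of all genes tested (13% higher and 13.2% lower). This count was 6 (2 higher and 4 lower) without WT replicate 2 and 7 (3 and 4) without KO replicate 3. It was 8 (4 and 4) without KO replicate 2 and 9 (5 and 4) without WT replicate 1. It was 10 (5 and 5) without WT replicate 3 and 18 (12 and 6) without KO replicate 1. Its size and balance thus varied with the library left out, and the count over all genes in these fits is not given here. The libraries of 10 were higher and of 13 were lower in KO without overlap, 35.4% in all, against 35.7% of all genes tested (16.9% higher and 18.8% lower). The median log2 fold change was -0.0060 over the 65 genes, and adjusted p ran from 0.147 to 0.987 in edgeR's test.

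Purine synthesis had log2 fold changes on both sides of 0. All 8 genes of de novo synthesis were tested, and 1 had an unadjusted p-value under 0.05. This was *Pfas*, a synthase of this pathway, with 75.6 ± 9.04 CPM in the WT libraries against 60.5 ± 7.01 in the KO libraries (SD, n = 3 each), and the log2 ratio of KO to WT was -0.32 (SE 0.13, adjusted p = 0.164 in edgeR's test). *Prps2*, which makes the ribose phosphate donor, was at 0.24 (SE 0.13, adjusted p = 0.256). Among the 7 genes of the steps between IMP and AMP or GMP, in either direction, *Gmps*, the GMP synthetase, was at 0.46 (SE 0.18, adjusted p = 0.164). *Impdh1* was at -0.26 (SE 0.13, adjusted p = 0.232). With the GC correction, *Pfas* was at -0.21, *Prps2* at 0.026, *Gmps* at 0.13 and *Impdh1* at 0.066, so that *Impdh1* changed sign.

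Of the 9 further salvage and deamination genes, 7 were tested. *Mtap*, which recovers adenine from the polyamine pathway, had 59.4 ± 1.53 CPM in the WT libraries against 72.9 ± 8.90 in the KO libraries (SD, n = 3 each), and the log2 value of KO over WT was 0.30 (SE 0.11, adjusted p = 0.158), and *Adal* was at 0.12 (SE 0.16, adjusted p = 0.641). Among the intracellular nucleotidases and breakdown enzymes, 8 of 13 were tested. *Nt5c3*, a cytosolic nucleotidase that prefers pyrimidine nucleotides, was at 0.54 (SE 0.19, adjusted p = 0.152), and *Nt5c2*, the IMP and GMP nucleotidase, at 0.19 (SE 0.090, adjusted p = 0.210). Corrected for GC content, *Mtap* was at 0.18, *Nt5c3* at 0.29 and *Nt5c2* at 0.10, and *Adal* changed sign to -0.024. The urate-degrading genes *Uox*, *Urah* and *Urad* had no more than 3 counts in any library.

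Nucleotide kinases were the group with most genes above 0. Of 9 tested, 7 had a log2 fold change above 0, against 51.0% of all genes tested. An unadjusted p-value under 0.05 was found for 3, all higher in KO, against the 13% given above. *Ak6* was at 0.45 (SE 0.17, adjusted p = 0.161), and *Nme1* at 0.35 (SE 0.13, adjusted p = 0.158). With the GC correction these were 0.58 and 0.37.

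Outside the cell, *Bst1*, an enzyme that consumes NAD, shared the lowest adjusted p of the list with *P2rx7*, *P2ry2* and *P2ry6*. *Bst1* had 39.3, 39.7 and 41.0 CPM in the WT libraries against 29.6, 30.6 and 35.2 in the KO libraries, which did not overlap, and its log2 fold change was -0.33 (SE 0.11, adjusted p = 0.147 in edgeR's test). With the GC correction it was -0.50, with an adjusted p = 0.0312 in edgeR and 0.000291 in DESeq2, which put it past the limits in DESeq2 only. The other 6 tested genes listed as ectonucleotidases do not all act at the cell surface. Among them *Cd38*, another NAD-consuming enzyme, had the log2 fold change farthest from 0, 0.58 (SE 0.52, adjusted p = 0.485). *Cd38* had 0.219 to 0.735 CPM in WT and 0.417 to 0.764 CPM in KO. All 5 tested genes of nucleoside transport and ATP release had a log2 fold change below 0, against 49.0% of all genes tested, the lowest being that of *Slc28a2*, a concentrative nucleoside carrier, at -0.24 (SE 0.11, adjusted p = 0.190). The equilibrative carrier *Slc29a1* was at -0.13 (SE 0.10, adjusted p = 0.404), and changed sign to 0.052 with the GC correction, where *Cd38* was at 0.33 and *Slc28a2* at -0.32. The correction left 3 of these 5 transport genes below 0, since *Slc29a2* was then at 0.19.

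Of the adenosine receptors *Adora3* was at 0.41 (SE 0.27, adjusted p = 0.330) and *Adora2a* at -0.29 (SE 0.29, adjusted p = 0.540), with 1.35 ± 0.115 and 2.70 ± 0.998 normalized counts in WT (SD, n = 3 each). Of the 11 tested genes listed as P2 receptors by their symbol, *P2ry10* had the largest log2 fold change, 0.74 (SE 0.26, adjusted p = 0.153). Its product is known as a receptor for lysophosphatidylserine and not for nucleotides. The ADP receptor *P2ry12* was at 0.48 (SE 0.25, adjusted p = 0.245). The GC correction put *Adora3* at 0.40, *P2ry10* at 0.34 and *P2ry12* at 0.12, and *Adora2a* changed sign to 0.059. *P2ry10* lay between 1.21 and 3.0 CPM and *P2ry12* between 3.10 and 6.82 CPM over all libraries. Chosen after their values were seen, 6 P2 receptors had every KO library below every WT library, *P2rx1*, *P2rx4*, *P2rx7*, *P2ry1*, *P2ry2* and *P2ry6*, which is 6 of 11 against the 18.8% of all genes given above. In the other direction, the nucleotide sugar receptor *P2ry14*, and *P2ry10*, had every KO library above every WT library. After the GC correction 4 of the 11 were lower without overlap, not *P2rx1* and *P2ry6*, and 0 were higher, against 17.5% and 14.7% of all genes tested. The ATP-gated channel *P2rx7* had 42.8, 44.0 and 42.2 CPM in the WT libraries against 35.3, 33.1 and 35.3 in the KO libraries, with log2 fold change -0.32 (SE 0.092, adjusted p = 0.147). The UDP receptor *P2ry6* had 85.6, 115 and 94.2 in WT and 77.8, 74.1 and 67.8 in KO, with log2 fold change -0.42 (SE 0.12, adjusted p = 0.147). With the GC correction *P2rx7* was at -0.29 and *P2ry6* at -0.21.

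**Figure D4:**
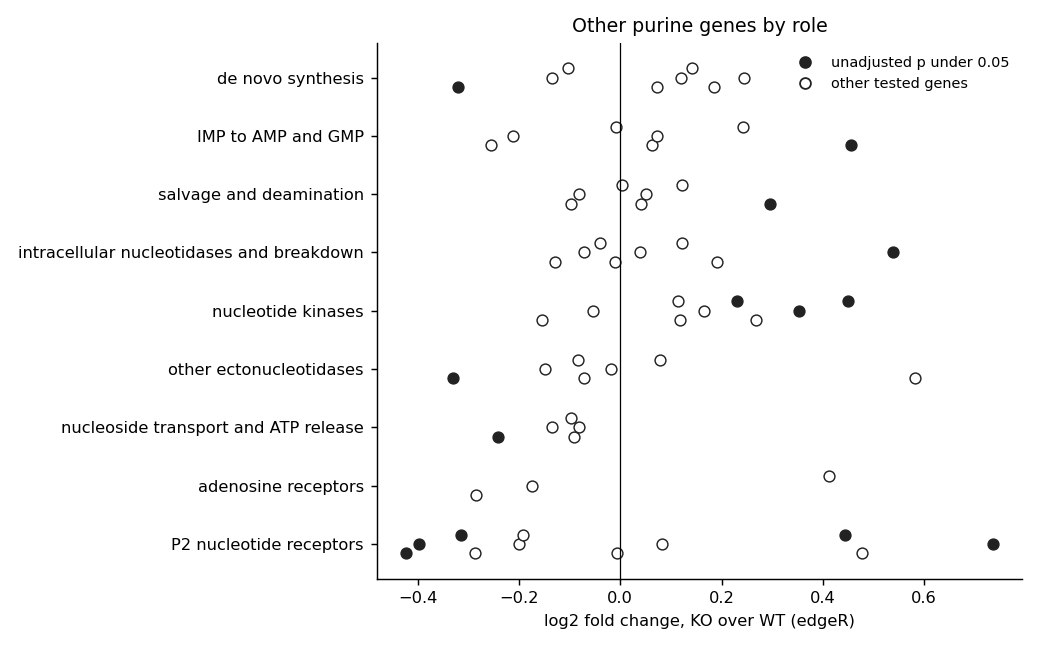
Log2 fold change of KO over WT (horizontal axis, edgeR) of the 65 tested genes of the wider purine list, grouped by role, with filled points for an unadjusted p-value under 0.05. The 14 filled points lie on both sides of 0, 7 of the 9 nucleotide kinases lie above 0, and the genes with P2 receptor symbols span from -0.42 for *P2ry6* to 0.74 for *P2ry10*, which is not a nucleotide receptor.

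The genes whose profile over the 6 libraries was most like that of *Ampd3* were sought among tested genes of at least 5 CPM. Likeness was the root mean square difference between the log2 CPM of the libraries, each gene centred on its own mean. The nearest were *Atp8b2* (0.054), *4833438C02Rik* (0.060), *Tnfrsf21* (0.060), *2900026A02Rik* (0.064) and *Hip1* (0.066), where the median gene stood at 0.353. Their log2 fold changes lay between -0.58 and -0.66, and with the GC correction between -0.29 for *4833438C02Rik* and -0.58 for *Hip1*. Of the other members, *Xdh* stood at 0.131, *Ampd2* at 0.210, *Entpd1* at 0.247 and *Hprt* at 0.667. The points share the genotype, the library and its GC trend.

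*Ampd3* overlaps other transcripts at both ends. At its 5′ end lies *B430319F04Rik* (ENSMUSG00000110062), an unclassified transcript on the minus strand from 110766677 to 110769345, which covers the window of start 1 shown above and shares 196 exonic bases with *Ampd3*, 3.48% of the exonic bases of the latter. It had 30, 30 and 25 counts in WT and 13, 10 and 9 counts in KO. All KO libraries were below all WT libraries, and the log2 fold change was -1.37 (SE 0.29, adjusted p = 0.147 in edgeR's test) and -1.25 with the GC correction. At the 3′ end *Rnf141* lies on the minus strand and shares 195 exonic bases. It had 44.3, 37.5 and 42.1 CPM in the WT libraries against 43.8, 46.3 and 54.0 in the KO libraries, which overlapped, with log2 fold change 0.22 (SE 0.12, adjusted p = 0.255). The libraries were made with a stranded kit, but whether counting used the strand is not given in the sources used here.

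**Figure D5:**
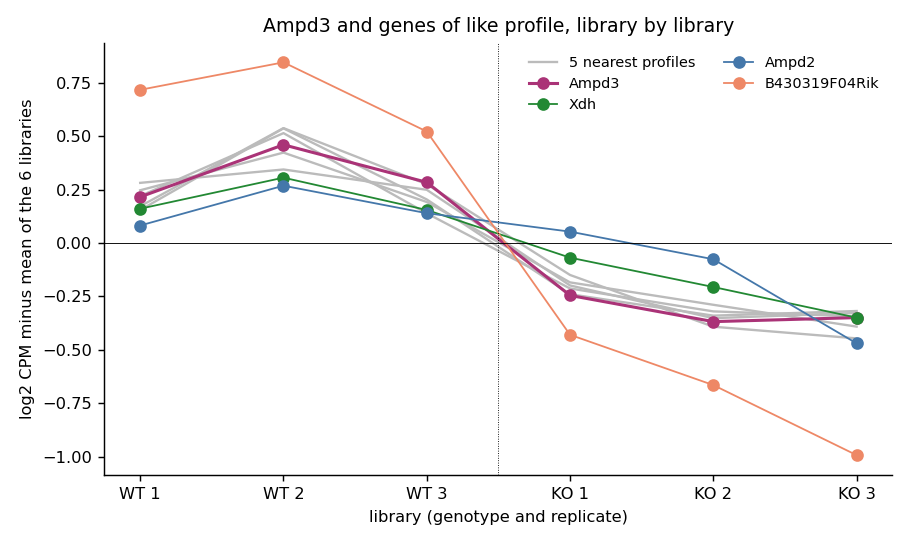
Log2 CPM of each library minus the gene's mean over the 6 libraries (vertical axis) for *Ampd3*, its 5 nearest profiles, *Xdh*, *Ampd2* and the antisense transcript *B430319F04Rik*. Lines join the libraries of a gene only to guide the eye, and *Ampd3* lies above its mean in the 3 WT libraries and below it in the 3 KO libraries, as do *Xdh* and, over a wider range, *B430319F04Rik*.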

How the data were processed

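RNA from 3 WT and 3 KO cultures was sequenced from stranded mRNA libraries. Majorbio sequenced them, and the submitters' processing notes name fastp, HISAT2, StringTie and RSEM with the build GRCm39, without versions. The authors deposited estimated counts per gene, not normalized, which were partly not whole, and their mean for each genotype, which was not used. The 6 pairs of libraries within a genotype differed by more than counting noise.

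The deposited values were rounded for fitting. Fits ran in R 4.3.3 (edgeR 4.0.16, DESeq2 1.42.0, limma 3.58.1). Genes were kept by filterByExpr, scaled by TMM, and compared with glmQLFit (legacy = FALSE) and glmQLFTest, with Benjamini-Hochberg adjustment over the 13428 genes kept. Calls needed adjusted p under 0.01 and a fold exceeding 1.3. For the GC correction, the deviation of each library was fitted on GC content by a spline (5 df) and entered as an offset. Alternatives were other scalings, tools and filters, a replicate block, and leaving out libraries. GC content and length come from the longest transcript in GENCODE release M21 on GRCm38. Some of the fits were also run on simulated counts. These held no GC trend, so they do not test the GC correction on data like these.

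The members and lists were chosen with earlier results of these data known. Named are the members, the genes of the wider list past the limits in edgeR or DESeq2, the 2 largest changes in each role group, the 5 profiles nearest to *Ampd3*, and lincRNA-EPS. Other genes of the wider list, such as the P2 receptors that did not overlap, and the models that overlap members were named after their values were seen. Of the lists, 3 genes were matched through a RefSeq synonym. Marker lists for megakaryocytes (185 to 203 CPM in WT and 173 to 211 CPM in KO), B cells (27.0 to 30.4 and 31.7 to 37.3 CPM), T and NK cells (1.92 to 2.52 and 2.50 to 3.05 CPM) and stromal cells (15.4 to 21.5 and 11.3 to 18.1 CPM) were summed as those in the report. Some genes of the lists are not reported here by name.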

Additional observations from a re-analysis of the deposited data

How the results depend on the processing

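The log2 fold change of *Ampd3* stayed between -0.70 and -0.56 over 18 alternatives, and those of *Xdh*, *Ampd2* and *Entpd1* stayed below 0 and that of *Hprt* above 0. *Ada*, *Adk*, *Pnp* and *Nt5e* each changed sign in at least 1 of them. EdgeR's test called 1 gene in all. This number was 126 with DESeq2 (54 higher and 72 lower in KO), 3 with the GC correction, 340 with the GC correction in DESeq2 (182 higher and 158 lower), and 8 without both WT replicate 2 and KO replicate 3, an alternative chosen after seeing the data. With each library left out in turn it was 0 to 2. The count of other purine genes past the limits was 0, and 1 with the GC correction in DESeq2. At an unadjusted p-value under 0.05 their count, 14, was 6 without WT replicate 2, 7 without KO replicate 3, 8 without KO replicate 2, 18 without KO replicate 1, and 9 without WT replicate 1 or without both WT replicate 2 and KO replicate 3. Replicate numbers are shared between genotypes, but the deviations of same-numbered libraries had r = -0.215, 0.0766 and 0.166, so the numbers were not taken as pairs. With the replicate block *Ampd3* was at -0.64, 1 gene was called, and the count of other purine genes past the limits stayed at 0. *Nt5e*, at 15 to 38 counts per library, had the largest standard error of the members, 0.40.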

Other observations

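Among the other gene models that overlap members or lie within them, 2 are given here, chosen after their values were seen because they were lower in KO without overlap. Others were not lower: *Gm38316*, over *Pnp*, had 0 counts in WT and 0, 3.08 and 2.05 in KO, and *Gm49342*, *Pnp2* and *Rnf141* overlapped between genotypes. *Gm12500*, annotated antisense to *Ampd2* with 434 shared exonic bases, had 40.09, 46.25 and 29.91 estimated counts in WT and 26.43, 21.05 and 9.56 in KO, so that every KO library was below every WT library. *Gm8783*, a processed pseudogene on the strand of *Entpd1* that shares 0 exonic bases with it, had 31.27, 33.25 and 30.21 in WT and 20.41, 4.58 and 0 in KO, again without overlap. These values were not tested, and counts of overlapping models depend on how reads were divided between them.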
